A study of Mus musculus with 6 samples.

Results

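The genes of glycolysis and of the response to low oxygen were followed in tumor-bearing colon tissue of 6 mice, 3 on RG@M-γ-CD and 3 on PBS. Members were all gene probes on the arrays that carry the symbol of 1 of 43 chosen genes, 24 of glycolysis and its branch points and 19 of oxygen sensing and other hypoxia targets. All 43 were among the 19090 genes tested, and they carried 95 of the 56605 gene probes. Male C57BL/6 mice, 6 to 8 weeks old at purchase, received AOM (azoxymethane, a carcinogen) at 10 μg/g by intraperitoneal injection. After 7 days they drank 2% DSS (dextran sulfate sodium, which inflames the colon) for 5 days and ordinary water for 5 days, and tumors were left to develop for a further 50 days. By the study's methods, dosing followed a check for tumors in sampled mice, on a later day than these intervals add up to. The treated group took RG@M-γ-CD by mouth at 30 μg/g, equal to 10 μg/g of RG, and the control group took PBS. RG is regorafenib, a multikinase inhibitor, and in RG@M-γ-CD it is held in channel-type nanoparticles of mannose-modified γ-cyclodextrin. Treatment lasted 21 days, a further 14 days of observation followed before the tissue was taken, and thus all arrays carry the AOM and DSS model and the treated mice had passed the observation period. The treatment, called Rgnanomedicine in the labels, was compared with PBS on 1 one-color array per mouse.

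Glycolysis turns glucose into pyruvate, which cells turn into lactate or pass to the mitochondria, and tumors often run it at a high rate. When oxygen is low, prolyl hydroxylases no longer mark the HIF α subunits for destruction through VHL. HIF then pairs with ARNT, binds hypoxia response elements in DNA and turns on glucose transporters, most glycolytic enzymes, carbonic anhydrases, collagen hydroxylases and mitophagy genes. In the colon the epithelium at the lumen is physiologically hypoxic, and inflammation and rapid growth extend the oxygen-poor area.

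The short core of the hypoxia response element (ACGTG or GCGTG) was searched on both strands of the promoters, from 250 bases before to 50 bases after each annotated start in RefSeq (GRCm38.p6). Windows were found for 38 of the 43 members, 53 in all. The core occurred in 41 of them (77.4%), against 43.8% of all 32851 windows. It occurred in 28 of 36 windows of glycolysis members and in 13 of 17 windows of hypoxia members. The members' windows had a median GC content of 61.3%, against 52.7% over all windows, and a match is a description of the letters, not evidence of binding. The 250 bases before the start are shown for Hk2 and Pfkfb3, the 2 members with the smallest unadjusted p, and for Ldha, a textbook HIF target. Capitals mark the core on either strand. CACGTG holds the core on both strands, so its cores overlap and were counted separately, and for Pfkfb3 and Ldha the start with more cores was taken.
Hk2 (chr6:82774455-82774704, minus strand): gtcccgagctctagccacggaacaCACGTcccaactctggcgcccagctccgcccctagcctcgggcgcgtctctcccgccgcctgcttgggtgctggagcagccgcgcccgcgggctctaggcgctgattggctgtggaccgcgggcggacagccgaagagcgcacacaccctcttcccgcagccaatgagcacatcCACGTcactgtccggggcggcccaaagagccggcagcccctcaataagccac
Pfkfb3 (chr2:11502091-11502340, minus strand): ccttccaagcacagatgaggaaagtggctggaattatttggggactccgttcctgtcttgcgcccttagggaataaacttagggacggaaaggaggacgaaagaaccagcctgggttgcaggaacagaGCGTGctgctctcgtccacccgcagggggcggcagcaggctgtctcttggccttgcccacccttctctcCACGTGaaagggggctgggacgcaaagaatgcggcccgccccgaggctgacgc
Ldha (chr7:46845554-46845803, plus strand): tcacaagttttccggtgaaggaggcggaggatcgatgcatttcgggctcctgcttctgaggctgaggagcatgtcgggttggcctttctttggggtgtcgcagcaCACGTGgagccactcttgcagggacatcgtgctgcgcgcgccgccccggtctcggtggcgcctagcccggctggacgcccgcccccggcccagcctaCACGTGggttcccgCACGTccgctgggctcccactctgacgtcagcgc
Within these 250 bases Hk2 held 2 cores, Pfkfb3 3 and Ldha 5.

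Values are log2 signals after subtraction of the 75th percentile of the same array, and differences are RG@M-γ-CD minus PBS on that scale. Probes differ in brightness for the same amount of RNA, so levels are compared between arrays and not between genes. Each member was read on its brightest probe, and all 43 of these probes were well above background on all 6 arrays. Between 28103 and 31219 gene probes were well above background per array. The arrays came from 1 slide and 1 scan, where row 1 holds the RG@M-γ-CD arrays and PBS replicate 1, and row 2 holds PBS replicates 2 and 3. Slide row and treatment are thus partly confounded. A heat map in the study's supplement sets RG@M-γ-CD replicates 2 and 3 and PBS replicate 1 apart from the remaining arrays, and the main results are also given under that grouping.

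None of the 43 members passed the adjusted threshold of 0.05 (limma, Benjamini-Hochberg over all genes tested; smallest adjusted p of a member 0.99998), and of all genes 0% passed. At an unadjusted p below 0.05, 2 of 43 members were lower in the RG@M-γ-CD group and 0 were higher, where 2.19% of all genes were below 0.05 (1.33% lower, 0.864% higher). Groups did not overlap for 2 members, both lower, where 4.57% of all genes did not overlap (2.19% lower, 2.38% higher). The median difference was −0.02 over all members and −0.01 over all genes tested. It was −0.08 for the glycolysis members, 9 of which were higher and 15 lower (all genes 47.2% and 52.8%), and 0.02 for the hypoxia members, 11 of which were higher and 8 lower. For 33 of the 43 members the 95% interval of the difference lay within a fold of 2 in either direction. The interval reached beyond that for Hk2, Hk3, Pfkm, Eno2, Ldhb, Slc16a3, Pfkfb3, Hif1a, Car12 and Plod2, so for these 10 genes a larger change could not be resolved with 3 arrays per group.

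**Figure D1:**
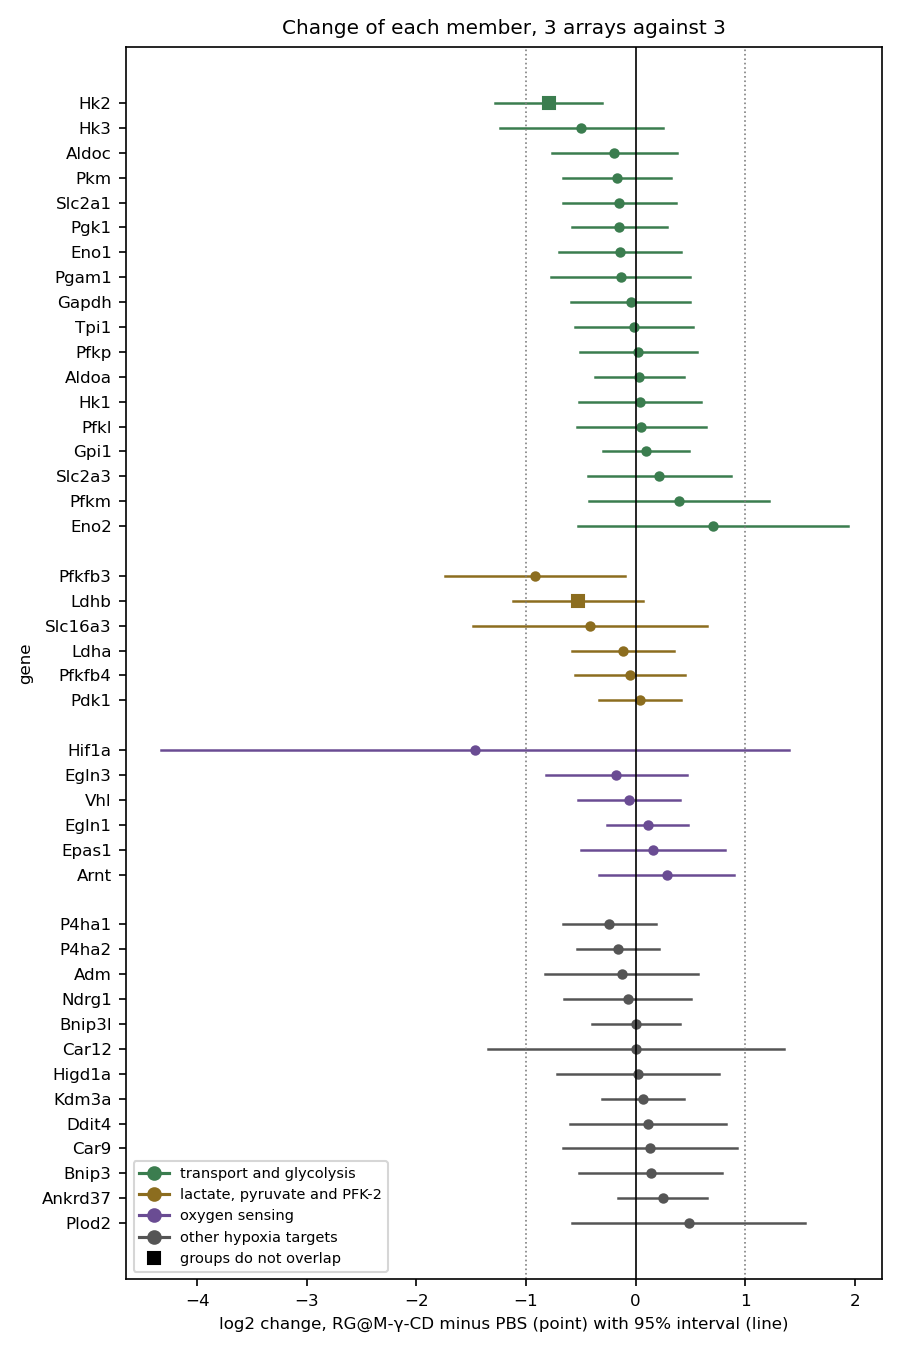
Log2 difference (RG@M-γ-CD minus PBS, horizontal axis) of each of the 43 members with its 95% interval, grouped by list and sorted within each list. Squares mark the members whose groups do not overlap, dotted lines a fold of 2 in either direction. Most points lie near 0, Hk2, Pfkfb3 and Ldhb lie to the left, and the widest interval, from −4.34 to 1.40, belongs to Hif1a.

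Glucose entry and trapping gave the member with the smallest unadjusted p. Hk2, the hexokinase that tumors and other highly glycolytic cells induce, read 3.67, 3.15 and 3.23 on the RG@M-γ-CD arrays and 4.06, 4.01 and 4.36 on the PBS arrays. All 3 RG@M-γ-CD arrays lay below all 3 PBS arrays. The difference was −0.79 (SE 0.20, 95% interval −1.28 to −0.30), 1.73-fold higher in PBS, and below an unadjusted limma p of 0.05 but not past adjustment (adjusted p = 0.99998). An exact two-sided permutation test of the 6 arrays gave p = 0.1, the smallest that 3 against 3 allows. The difference stayed between −0.95 and −0.69 whichever array was left out, always below an unadjusted p of 0.05, with adjusted p-values from 0.0923 upward. With slide row as a block it was −0.71 and under the heat map grouping −0.53, and under neither was the unadjusted p below 0.05. In bulk tissue, fewer cells of a type and less RNA per cell cannot be told apart.

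The other hexokinases and the transporters behaved differently from one another. Hk3, the hexokinase of myeloid cells, read −0.87, −1.72 and −1.98 in the RG@M-γ-CD group and −0.80, −1.23 and −1.05 in the PBS group. RG@M-γ-CD replicates 2 and 3 lay below all PBS arrays and replicate 1 lay among them, with a difference of −0.50 (SE 0.31, 95% interval −1.24 to 0.25). Hk1, the hexokinase found in most tissues, differed by 0.04 (SE 0.23). Slc2a1, the main glucose transporter of growing cells, read 4.15, 3.81 and 4.13 against 3.83, 4.28 and 4.43. Its groups overlapped, with a difference of −0.15 (SE 0.21, 95% interval −0.66 to 0.37). Slc2a3, the high-affinity glucose transporter, differed by 0.22 (SE 0.27).

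Most enzymes of the glycolytic chain were close to equal in both groups. From Gpi1, which isomerises glucose phosphate, through Pfkl and Pfkp (phosphofructokinase), Aldoa and Aldoc (aldolase), Tpi1, Gapdh, Pgk1, Pgam1 and Eno1 to Pkm (pyruvate kinase), the 11 differences ranged from −0.19 (Aldoc) to 0.09 (Gpi1), each with an SE between 0.16 and 0.26. All 11 intervals included 0 and stayed within a fold of 2.

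Eno2 and Pfkm, isoforms best known from nerve and muscle, varied widely among the RG@M-γ-CD arrays. Eno2, the neuronal enolase, read −2.63, −0.94 and −0.72 on the RG@M-γ-CD arrays and −2.03, −2.46 and −1.91 on the PBS arrays. RG@M-γ-CD replicates 2 and 3 were above every PBS array and replicate 1 was below them all, so the difference of 0.71 had an SE of 0.51. Pfkm, the muscle phosphofructokinase, read −0.15, 1.08 and 0.91 against 0.08, 0.41 and 0.16, with a difference of 0.40 (SE 0.34). The order of the arrays was again replicates 2 and 3 at the top and replicate 1 at the bottom. Smooth muscle markers ran the same way, with a summed signal of 103, 665 and 799 times the 75th percentile on the RG@M-γ-CD arrays and 197 to 229 on the PBS arrays. All 7 of 7 listed markers (Acta2, Actg2, Myh11, Des, Cnn1, Tagln and Smtn) were tested, and their part in the values of Eno2 and Pfkm was not tested. The aldolase isoform Aldoc ran the other way, at 4.77, 4.07 and 3.99 against 4.37, 4.52 and 4.52, with replicate 1 at the top.

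Of the 6 members that handle lactate, pyruvate and fructose bisphosphate, 5 were lower, where 52.8% of all genes were, with a median of −0.27. Of these, 1 was below an unadjusted limma p of 0.05, where 1.33% of all genes were lower and below it. With slide row as a block 3 were higher and 3 lower, with a median of −0.10. Pfkfb3, which makes the activator of phosphofructokinase and so speeds glycolysis, read 1.67, 0.57 and 0.63 on the RG@M-γ-CD arrays and 1.99, 1.52 and 2.12 on the PBS arrays. Replicates 2 and 3 lay below all PBS arrays, and replicate 1 lay within their range. The difference was −0.92 (SE 0.34, 95% interval −1.74 to −0.10), 1.89-fold higher in PBS, below an unadjusted limma p of 0.05 but with an adjusted p of 0.99998. It was between −1.27 and −0.73 with any 1 array left out, and the unadjusted p stayed below 0.05 only where the array dropped was PBS replicate 2 or RG@M-γ-CD replicate 1. With slide row as a block it was −1.03, no longer below an unadjusted p of 0.05. Pfkfb4, its relative with a strong hypoxia response in many tissues, differed by −0.05 (SE 0.21).

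Ldhb, the lactate dehydrogenase subunit that favours pyruvate, read 2.26, 1.43 and 2.04 against 2.59, 2.26 and 2.45. The groups did not overlap, but the gap between RG@M-γ-CD replicate 1 (2.258) and PBS replicate 2 (2.262) was far smaller than the spread within either group. The difference was −0.53 (SE 0.25, 95% interval −1.12 to 0.07), and a further probe of Ldhb gave −0.55. On that probe the groups overlapped, with RG@M-γ-CD replicate 1 at −0.91 above PBS replicate 2 at −1.24. Ldha, the subunit that favours lactate, read 7.28, 7.38 and 7.58 against 7.29, 7.82 and 7.47, with a difference of −0.11 (SE 0.20, 95% interval −0.58 to 0.35). Pdk1, which holds pyruvate back from the mitochondria, read 2.81, 3.10 and 2.88 against 2.80, 2.93 and 2.94, a difference of 0.04 (SE 0.15). Slc16a3, the lactate exporter, read 2.38 on RG@M-γ-CD replicate 2 and between 3.62 and 4.12 on the other arrays, so its difference of −0.42 had an SE of 0.44 and was 0.10 without that array.

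Macrophage markers, like Hk3 and Pfkfb3, were lowest on RG@M-γ-CD replicates 2 and 3. The summed signal of 7 macrophage markers was 34.4, 20.7 and 20.6 on the RG@M-γ-CD arrays and 29.8 to 35.8 on the PBS arrays, and all 7 were lower in the RG@M-γ-CD mean. Of 7 neutrophil markers, 6 were lower in the RG@M-γ-CD mean and lowest on RG@M-γ-CD replicate 2, such as S100a8, at 3.24, −2.24 and −0.80 against 2.86, 1.33 and 3.56. The sums over all 7, which are not on the log2 scale, were 100.1, 80.0 and 46.8 against 59.3 to 103.8. On RG@M-γ-CD replicate 2 most of the sum was Csf3r (log2 value 6.25), the marker that was not lower there. T cell markers ran like the macrophage markers, with sums of 2.86, 1.88 and 1.76 against 2.59 to 4.05. The sums of squamous epithelium markers were also lowest on RG@M-γ-CD replicates 2 and 3, at 22.1, 11.9 and 16.1 against 20.3 to 26.9. Only 4 of the 7 listed squamous markers were tested, and 1 of them, Trp63, was instead highest on RG@M-γ-CD replicate 2 (log2 value 2.35). All 4 tested markers of the T cell list and all 4 of the squamous list were lower in the RG@M-γ-CD mean. The sums of B and plasma cell markers did not run this way, at 33.0, 46.9 and 36.4 against 30.6, 24.4 and 36.9. The part of these markers in the values of Hk3, Pfkfb3 and Hk2 was not tested. The 10 colon epithelium markers were all measured, with sums of 1009 to 1274 in the RG@M-γ-CD group and 936 to 1373 in the PBS group.

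**Figure D2:**
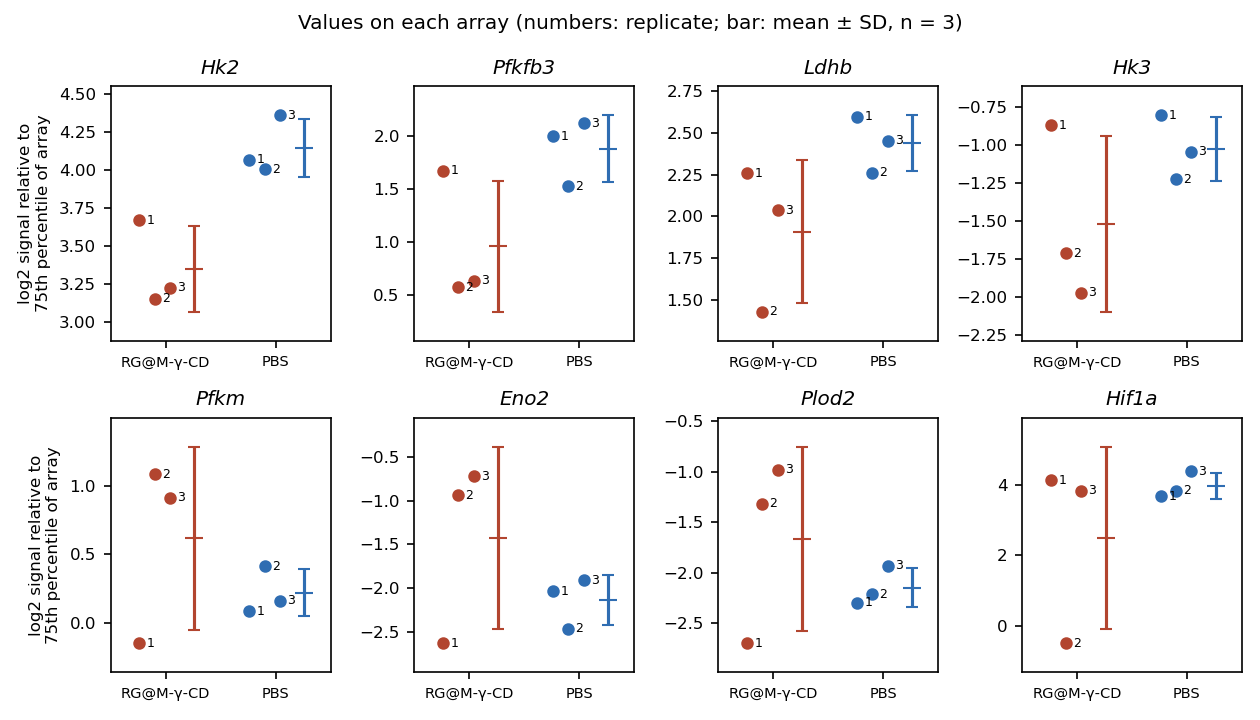
Log2 signal relative to the 75th percentile of the array (vertical axis, each panel with its own range) of 8 members on each array. Points are arrays with their replicate number, and bars the mean ± SD (n = 3). RG@M-γ-CD replicate 1 sits apart from replicates 2 and 3 for Pfkfb3, Hk3, Pfkm, Eno2 and Plod2, and 1 array carries the low mean of Hif1a.

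Oxygen sensing had 3 members higher and 3 lower, with 0 below an unadjusted p of 0.05. Hif1a, the α subunit that oxygen destroys, read 4.12, −0.49 and 3.83 on the RG@M-γ-CD arrays and 3.67, 3.83 and 4.37 on the PBS arrays. The difference of −1.47 (SE 1.19) came from RG@M-γ-CD replicate 2, and with that spot set aside it was 0.02. The spot had a pixel-to-pixel coefficient of variation of 56.0%, against 8.54% to 11.3% for the same probe on the other arrays, although the scanner software did not mark it as an outlier. Among 5185 spots of like brightness on that array, a number that includes this spot, no other had a coefficient of variation as high. Of 13 measurable probes within 2 rows and columns of it, the median difference of RG@M-γ-CD replicate 2 from the other arrays was −0.74, against −0.09 over 27956 probes. The low Hif1a value thus stood on a spot whose own pixels disagreed and whose neighbours were dim.

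A further probe filed under Hif1a lies on the strand opposite to the gene and was highest on that same array. It read −2.49, −0.93 and −2.17 against −1.19, −2.27 and −1.70. Its highest arrays, RG@M-γ-CD replicate 2 and PBS replicate 1, were also the highest for further probes on their gene's own strand. A probe of Eno1, for example, read −0.12 and −0.19 on these arrays, so this order was not particular to the opposite strand. The first 30 of the 60 bases of both probes are shown, since both carry the gene's name but read opposite strands (mm9, each written 5′ to 3′).
Hif1a, probe on the gene's strand (chr12:75047819-75047848, plus strand): tgggtctaacactaactgtactgttttgtt
Hif1a, probe on the opposite strand (chr12:75027568-75027597, minus strand): cgccgagatcttgctgcatctctagacttt
For comparison, the same stretch of the probes behind the 3 lowest glycolysis members by test or overlap was as follows, all on the strand of the gene.
Hk2 (chr6:82675086-82675115, minus strand): tagtgagcgttttgtcatcatgtacagtag
Pfkfb3 (chr2:11393609-11393638, minus strand): tggctttaattgttcattggttcggggcct
Ldhb (chr6:142438859-142438888, minus strand): atgtaggtcacagtttgcttcttccctgac
Of 87 member probes whose gene has an annotated strand, 2 lay on the opposite one, this Hif1a probe and a dim probe of Pgk1, and neither was the probe used.

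The partners and regulators of HIF differed by 0.28 or less in size between the groups as labelled. Arnt, the β subunit, read 1.59, 1.91 and 1.81 against 0.96, 1.77 and 1.74, a difference of 0.28 (SE 0.26), and 0.02 without PBS replicate 1. With slide row as a block, a comparison that rests on PBS replicate 1, it was 0.81 (SE 0.22, limma adjusted p = 0.997). Arnt was the 1 member below an unadjusted p of 0.05 there, where 2.93% of all genes were. Epas1, the α subunit of endothelium and other specialised cells, differed by 0.16 (SE 0.27). Egln1 and Egln3, the oxygen-sensing prolyl hydroxylases, differed by 0.11 (SE 0.15) and −0.18 (SE 0.27), and Vhl, which recruits the ubiquitin ligase, by −0.06 (SE 0.19). Epas1, Egln1, Egln3 and Vhl all had overlapping groups.

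The other 13 hypoxia targets had a median difference of 0.02, with 8 higher and 5 lower and 0 below an unadjusted p of 0.05. Car9, the carbonic anhydrase widely used as a hypoxia marker, read 3.63, 3.09 and 3.77 against 2.72, 3.70 and 3.68, a difference of 0.13 (SE 0.33). Its lowest arrays were 1 of each group, PBS replicate 1 and RG@M-γ-CD replicate 2. Car12, a related carbonic anhydrase, had the same lowest arrays, at −2.24 and −1.85, and differed by 0.01 (SE 0.56). With slide row as a block, the differences were 0.78 (SE 0.32) for Car9 and 1.09 (SE 0.57) for Car12. Adm, the vasodilator peptide adrenomedullin, read 0.13, −0.89 and −0.59 against −0.53, −0.31 and −0.11. The RG@M-γ-CD arrays were both the highest and the lowest for Adm, with a difference of −0.13 (SE 0.29).

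Ndrg1, a gene induced by hypoxia and other stress, read 4.77, 5.44 and 4.85 against 5.35, 5.07 and 4.86, a difference of −0.07 (SE 0.24). Ankrd37, a small direct HIF target, read 0.78, 1.23 and 1.01 against 0.79, 0.76 and 0.73. Its PBS arrays were tightly grouped (SD 0.03) and RG@M-γ-CD replicate 1 fell among them, leaving a difference of 0.25 (SE 0.17, 95% interval −0.16 to 0.66). Plod2, the lysyl hydroxylase that prepares collagen for cross-linking, read −2.70, −1.32 and −0.98 against −2.30, −2.21 and −1.93. Replicates 2 and 3 again lay above all PBS arrays and replicate 1 below, as for the smooth muscle markers, whose part in it was not tested, with a difference of 0.48 (SE 0.44). P4ha1 and P4ha2, the collagen prolyl hydroxylases, differed by −0.24 (SE 0.18) and −0.16 (SE 0.15). The mitophagy receptor Bnip3, the stress regulator Ddit4, the respiratory chain factor Higd1a and the histone demethylase Kdm3a ranged from 0.02 to 0.14, and Bnip3l, a relative of Bnip3, had a 95% interval of −0.40 to 0.40. Among these genes Bnip3 and Ddit4 were highest on RG@M-γ-CD replicate 1, at 4.17 and 7.03.

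**Figure D3:**
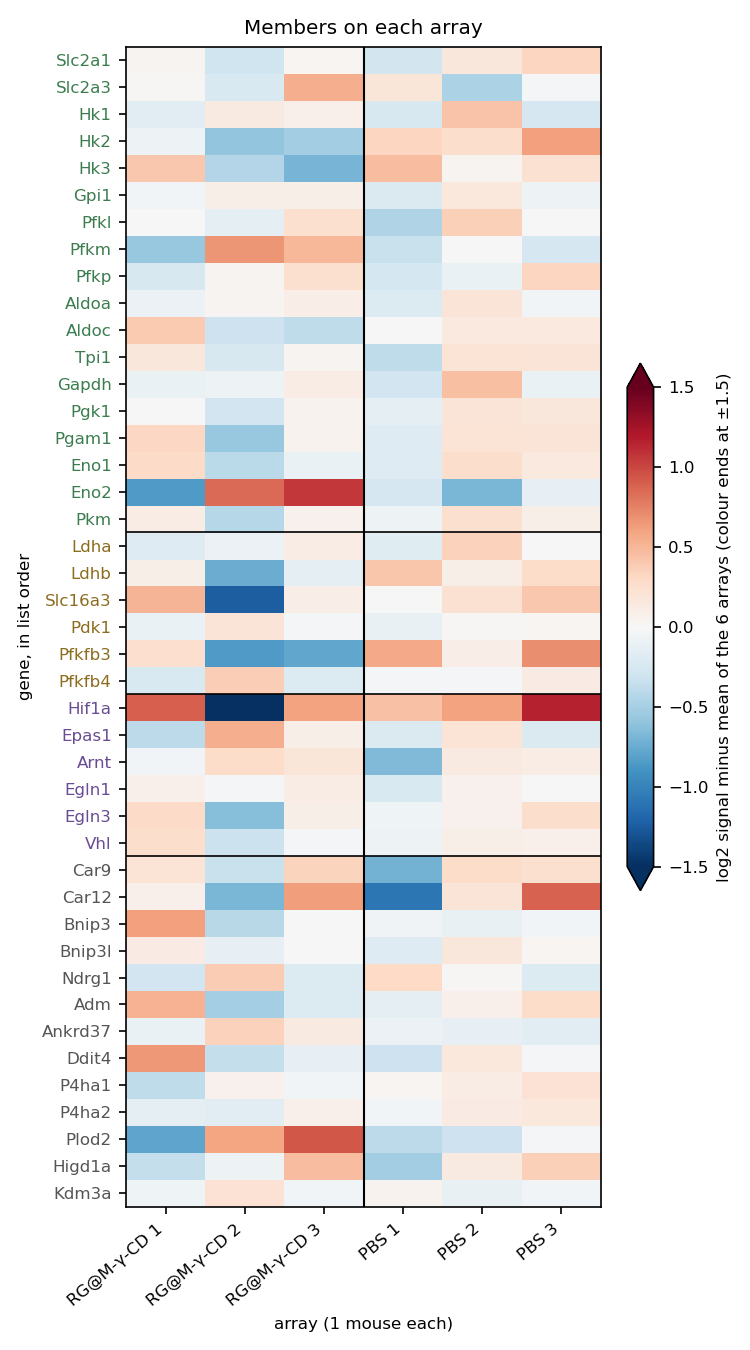
Log2 signal of each member (rows, colored by list) on each array (columns) minus the gene's mean over the 6 arrays, with red above and blue below the mean. RG@M-γ-CD replicate 2 and PBS replicate 1 were the lowest arrays for 16 and 13 of the 43 members, while Eno2, Pfkm and Plod2 are red on RG@M-γ-CD replicates 2 and 3. The Hif1a value on replicate 2 lies beyond the color range.

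The members also shared differences between single arrays. RG@M-γ-CD replicate 2 was the lowest array for 16 of the 43 members and PBS replicate 1 for 13, where over all genes these arrays were lowest for 36.7% and 23.0%. The median deviation of the glycolysis members from their mean was −0.23 on RG@M-γ-CD replicate 2 and −0.18 on PBS replicate 1, against 0.06 and 0.00 on the other two RG@M-γ-CD arrays and 0.18 and 0.13 on the other two PBS arrays. The hypoxia members had −0.12 and −0.15 on the same low arrays. All genes shared the direction at −0.10 and −0.11.

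**Figure D4:**
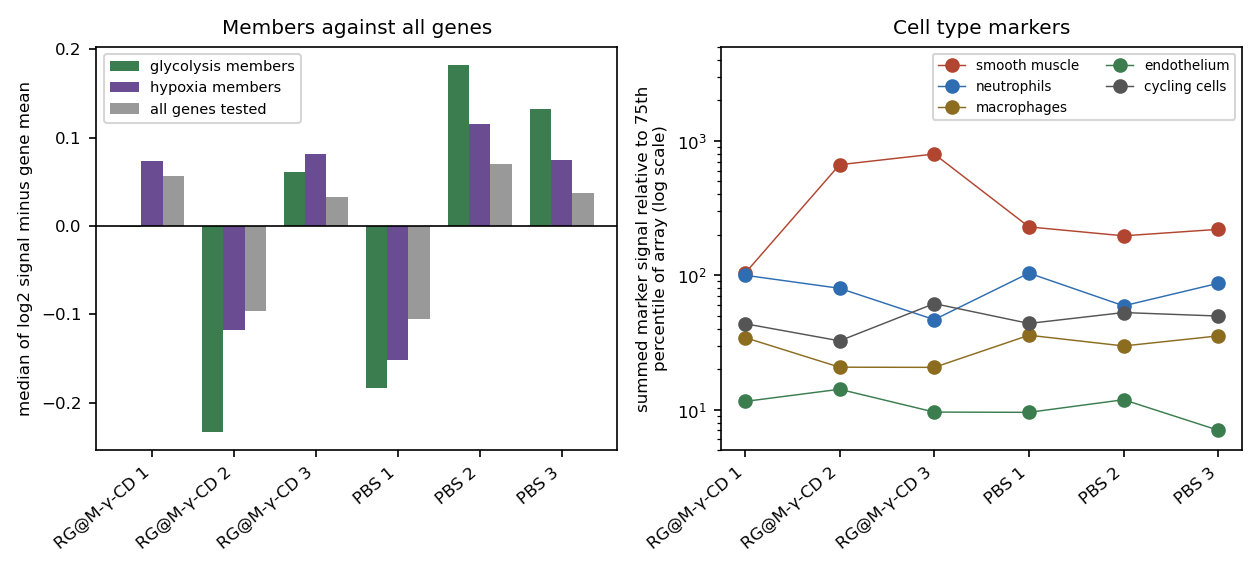
Left, median deviation of the glycolysis members, the hypoxia members and all genes tested on each array (bars, log2 signal minus the gene's mean over the 6 arrays). Right, summed signal of 5 lists of cell type markers on each array (log scale). RG@M-γ-CD replicate 2 and PBS replicate 1 are low on the left for all 3 sets, and smooth muscle on the right ranges from 103 to 799.

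Probes of the same member did not always rank the arrays alike. Among 34 further probes above background on all arrays, 29 had the sign of the used probe, the exceptions being 1 probe each of Eno1, Pdk1 and Pkm and 2 of Pfkp. Yet 8 of the 34 had RG@M-γ-CD replicate 2 and PBS replicate 1 as their highest arrays, against 2 of the 43 used probes and 13.0% of all 26540 probes. Among the 8 were probes of Arnt, Eno1, Pfkl, Pfkp and Pkm and the opposite-strand probe of Hif1a. Both arrays were lowest for 16 of the 43 used probes, 14 of the 34 further ones and 29.7% of all probes. For Eno1 and Pkm the used probe was lower on these arrays and 1 dim further probe of each was higher. The dim probes read −1.44 to −0.12 (Eno1) and −2.42 to −0.74 (Pkm), the used ones 5.70 to 6.39 and 6.31 to 6.99. Brighter further probes of both genes were lower on these arrays, at −0.56 and −0.09 for Eno1 and −0.53 and −0.08 for Pkm. A last Pkm probe was mixed, at −0.55 and 0.12. The direction of the array effect thus differed for these dim probes of Eno1 and Pkm. Not all dim probes followed them, as the further probe of Ldhb was lowest on RG@M-γ-CD replicate 2 (−2.09) and highest on PBS replicate 1 (−0.55).

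Gapdh, a glycolytic enzyme often taken as a constant, had 7 measured probes along the gene. On RG@M-γ-CD replicate 2 the deviation was −0.08 at the brightest probe, which was the one used. It was between −0.38 and −0.64 at the other 6, lowest at the probe nearest the start of the gene. The coordinates given for the brightest probe and for the probe placed last (−0.51) span fewer than their 60 bases. The order of these probes at the end of the gene is thus uncertain. Distances, up to 1464 bases, are by the given coordinates. PBS replicate 1 stayed between −0.28 and −0.18. The group difference was between −0.20 and −0.05 for all 7 probes, so the treatment comparison hardly depended on which was read.

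**Figure D5:**
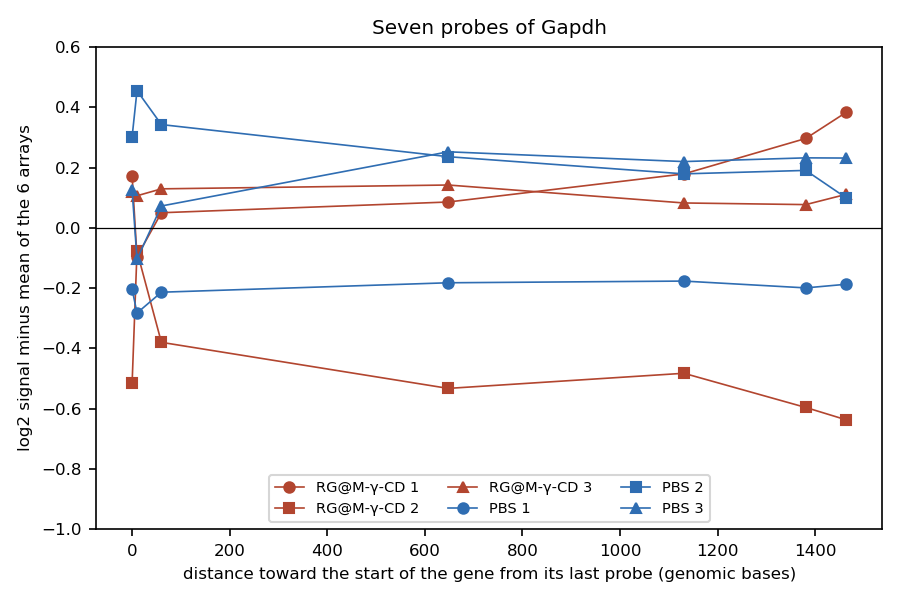
Deviation of 7 Gapdh probes from their mean over the 6 arrays (vertical axis, log2) against the distance from the last probe toward the start of the gene (horizontal axis, genomic bases). RG@M-γ-CD replicate 2 lies at −0.51 at the probe placed last, at −0.08 at the brightest and at −0.64 at the far end. The coordinates given for the probe placed last and for the brightest span fewer than their 60 bases, so their order is uncertain.

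Among the comparisons with 1 array left out, the member counts were highest without RG@M-γ-CD replicate 1. In its absence, 8 members had an unadjusted p below 0.05, where 12.5% of all genes did (5.42% lower, 7.05% higher). Hk2, Pfkfb3, Hk3, Ldhb and Aldoc were then lower and Eno2, Plod2 and Pfkm higher, with values from −1.27 (Pfkfb3) to 1.31 (Eno2). The members' smallest adjusted p was 0.0705 (Eno2), so 0 of 43 passed, where 1.04% of all genes did. With 1 of the remaining arrays left out instead, 1 or 2 members were below 0.05, where 1.25% to 2.75% of all genes were.

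Under the grouping of the supplementary heat map, with neither side named as treated, 7 members had an unadjusted p below 0.05 against 16.5% of all genes (8.79% lower, 7.76% higher). Aldoc, Tpi1, Pgam1, Eno1, Adm and Ddit4 were lower on the side of RG@M-γ-CD replicates 2 and 3 and PBS replicate 1, and Eno2 was higher. Their differences ran from −0.57 (Adm) to −0.38 (Tpi1), and 1.103 for Eno2. None passed adjustment (smallest adjusted p 0.297), as against 0.0259% of all genes, and 12 members did not overlap where 25.5% of all genes did not. The median was −0.24 for the glycolysis members and −0.14 for the hypoxia members, against −0.12 for all genes.

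Against PBS replicate 1 alone, the only PBS array of slide row 1, the median of the glycolysis members had the other sign. Slide row and the mouse of that array cannot be told apart. Within row 1 the glycolysis members had a median difference of 0.12 and the hypoxia members of 0.19, against 0.07 for all genes. In all, 13 of the 43 members changed sign, among them Slc2a1, Ldha and Adm, to 0.20, 0.12 and 0.09. Hk2 and Pfkfb3 kept theirs, at −0.71 and −1.03. All 3 RG@M-γ-CD arrays lay on 1 side of that PBS array for 18 members, where they did so for 38.7% of all genes.

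Further genes of both pathways were read as lists. Of 45 further genes of glucose metabolism, such as glucose-6-phosphatase, pyruvate dehydrogenase and the pentose phosphate enzymes, 42 were tested, 24 were higher and 18 lower, the median was 0.03 and 0 had an unadjusted p below 0.05. Of 40 further hypoxia genes, 34 were tested, 18 were higher and 16 lower, the median was 0.01 and 1 was below 0.05. That gene was Hmox1, heme oxygenase, which also answers oxidative stress and is abundant in macrophages. It read 1.47, 0.39 and 1.19 in the RG@M-γ-CD group and 2.15, 1.77 and 1.81 in the PBS group, without overlap. Its difference was −0.89 (SE 0.30, 95% interval −1.63 to −0.16), 1.86-fold higher in PBS, and it did not pass adjustment (adjusted p = 0.99998). Hmox1 was lowest on RG@M-γ-CD replicates 2 and 3, the arrays with the lowest macrophage marker sums, whose part in it was not tested. Without RG@M-γ-CD replicate 1, 1 further glucose gene passed adjustment, Slc2a4, the insulin-responsive glucose transporter of muscle and fat, named after its values were seen. It read 0.27, 2.54 and 2.60 against 1.08, 0.75 and 0.69. The difference was 1.73 (SE 0.19, limma adjusted p = 0.0305) without that array and 0.96 with it. RG@M-γ-CD replicates 2 and 3 were again the highest arrays, as for the smooth muscle markers, whose part in it was not tested.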

How the data were processed

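RNA of tumor-bearing colon tissue of 6 mice was hybridized to one-color Agilent arrays. The authors deposited spot intensities from Agilent Feature Extraction 10.7.1.1, which had subtracted the background and left arrays unnormalized. They also deposited log2 values per probe, used as an alternative and normalized by a method not given in the sources used here. In R 4.3.3, control and outlier spots were dropped, replicate spots averaged as log2 values, and each array was set to its 75th percentile over gene probes. Of 56605 gene probes, 32994 were named through their accession, the others by the file. Each gene was read on the brightest of its probes that were well above background throughout either group. Differences were fitted with limma 3.58.1 (two-sided, Benjamini-Hochberg, threshold 0.05). The fit was tested on simulated data. Signal over background stands in for depth, and 3 arrays per group limit the precision. Members and lists were chosen with earlier results of these data known. Values on every array are given for members with an unadjusted p below 0.05 or without overlap, the 5 largest rises and falls, Slc2a1, Hk2, Ldha, Pdk1, Hif1a, Car9, Adm and Ndrg1, and further pathway genes with an unadjusted p below 0.05. Alternatives changed 1 choice each. The row 1 comparison and the Hif1a spot set aside were added after seeing the data.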

Additional observations from a re-analysis of the deposited data

How the results depend on the processing

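None of the 43 members passed the adjusted threshold under any alternative tried, among them normexp background correction, quantile normalization, the authors' table and other filters on dim probes. Members without overlap numbered 4 with quantile normalization (5.33% of all genes) and with the authors' table (5.29%) and 1 with the mean of a gene's probes (4.68%), and the methods' t-test left 1 member at an unadjusted p below 0.05. Replicate numbers did not pair the arrays (same-number correlations of −0.25, −0.23 and 0.14 across genes). The replicate block moved the further pathway genes below 0.05 from 1 to 2, where 2.43% of all genes were, and changed no other count. With slide row as a block 1 member and 2 further genes were below 0.05, where 2.93% of all genes were. The glycolysis median was then 0.12 and the hypoxia median 0.19, and 13 of 43 members reversed, among them Slc2a1 (0.20), Ldha (0.12) and Adm (0.088). By construction the differences with that block are those within slide row 1, against 1 PBS array, where 18 members (38.7% of all genes) did not overlap. The heat map grouping gave 7 members and 15 further genes below 0.05, 12 members without overlap and a hypoxia median of −0.14, and 14 of 43 members reversed, among them Arnt (−0.14), Car9 (−0.48) and Ndrg1 (0.32). Hif1a was 0.019 with its spot set aside. Leaving out each array gave 1 to 8 members (1.25% to 12.5% of all genes) and 0 to 13 further genes below 0.05, 2 to 11 members without overlap (7.52% to 25.9% of all genes), glycolysis medians of −0.22 to −0.01 and hypoxia medians of −0.10 to 0.09. The highest counts came without RG@M-γ-CD replicate 1 (8, 13 and 11), where 1 further gene, Slc2a4, also passed adjustment. In at least 1 of these fits the sign turned for 26 of 43 members, among them Ldha (−0.23 to 0.032), Pdk1 (−0.044 to 0.10), Hif1a (−2.28 to 0.019), Car9 (−0.19 to 0.33), Ndrg1 (−0.28 to 0.057) and Adm (−0.42 to 0.094). The cause was not tested.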
